A study of Mus musculus with 4 samples.

Results

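The genes described here encode the 5 steps by which liver breaks tyrosine down: Tat (tyrosine aminotransferase), Hpd (4-hydroxyphenylpyruvate dioxygenase), Hgd (homogentisate 1,2-dioxygenase), Gstz1 (maleylacetoacetate isomerase) and Fah (fumarylacetoacetate hydrolase). They were chosen by name, and their probes were found through the RefSeq accession that the scanner files give for each spot. Each of the 5 genes had 1 probe, so the account rests on 5 of 41174 noncontrol probes. All 5 passed the filter on dim probes, which left 39328 probes of 31073 genes or accessions to be tested. The treated mice were 3-month-old C57Bl/6 males whose Wrn gene, which encodes a DNA helicase, was mutated and that had drunk water with 0.4% vitamin C since weaning. The untreated mice were males of the same strain, age and Wrn mutation without the vitamin. Both groups carried the mutation, and no group with an intact Wrn gene is compared here. Liver RNA of 4 treated and 4 untreated mice was hybridised in 4 pairs, each pair on 1 array of 2 colours, the treated liver in Cy3 and the untreated liver in Cy5. The labels call the livers of each group biological replicates.

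Tyrosine reaches this pathway from the diet and from phenylalanine, which hepatocytes convert to tyrosine. Tat removes the amino group and is the step most strongly controlled in rodent liver, where glucocorticoids and fasting induce it. Hpd is an iron enzyme that turns 4-hydroxyphenylpyruvate into homogentisate, and ascorbate keeps its iron in the reduced form. Hgd, also an iron enzyme, opens the ring, Gstz1 isomerises the product, and Fah splits it into fumarate and acetoacetate. Loss of Tat, Hpd or Fah causes tyrosinaemia of different types in humans, and loss of Hgd causes alkaptonuria.

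The RefSeq promoter table (build GRCm38.p6) held a sequence for each of the 5 genes. The 250 bases before the annotated start are shown for Tat, which had the largest mean difference, and for Hpd and Hgd, whose ratios lay nearest to each other over the arrays. The windows are chr8:109990186-109990435 on the plus strand for Tat, chr5:123182724-123182973 on the minus strand for Hpd and chr16:37579903-37580152 on the plus strand for Hgd. Each is written 5′ to 3′, and capitals mark the motifs searched on both strands, which do not overlap in these windows. The motifs were the CCAAT box, the GC box (GGGCGG), the TATA box (TATAAA), the glucocorticoid receptor's half-element (TGTTCT) and the first letters of the HNF1 element (GTTAAT).
Tat: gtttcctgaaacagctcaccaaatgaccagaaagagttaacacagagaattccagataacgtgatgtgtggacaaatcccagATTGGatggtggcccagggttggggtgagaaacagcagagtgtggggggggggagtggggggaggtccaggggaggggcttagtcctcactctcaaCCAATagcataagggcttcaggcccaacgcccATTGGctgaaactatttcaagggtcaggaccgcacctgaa
Hpd: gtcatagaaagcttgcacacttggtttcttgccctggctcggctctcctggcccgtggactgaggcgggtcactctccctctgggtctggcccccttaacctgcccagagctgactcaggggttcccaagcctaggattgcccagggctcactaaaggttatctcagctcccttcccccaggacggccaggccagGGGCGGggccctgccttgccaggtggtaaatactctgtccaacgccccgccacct
Hgd: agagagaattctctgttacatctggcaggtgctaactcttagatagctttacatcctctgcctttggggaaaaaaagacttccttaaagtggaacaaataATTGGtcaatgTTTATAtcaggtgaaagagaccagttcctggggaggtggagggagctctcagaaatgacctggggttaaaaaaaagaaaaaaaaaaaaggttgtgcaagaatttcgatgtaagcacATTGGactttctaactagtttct
The window of Tat held 3 CCAAT motifs, which began 168, 72 and 40 bases before the start, and none of the other 4 motifs. That of Hpd held 1 GGGCGG motif, 55 bases before the start. That of Hgd held 2 CCAAT motifs and 1 TATAAA motif. Over 32851 windows of the same length in the table, 33.8% held CCAAT, 32.7% held GGGCGG, 12.4% held TATAAA, 16.1% held TGTTCT and 6.43% held GTTAAT. The matches describe letters in these windows only.

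Ratios are given as log2 of treated over untreated signal, after background correction and loess within each array. No array was dye-swapped (0 of 4), so an effect of the treatment and a dye effect of a probe cannot be told apart. Every direction rests on the dye labels. Under those labels the deposited ratios run against the order written in the sample titles, as described with the processing. The 4 arrays shared 1 slide and 1 scan time. The median spot of an array read 380 to 530 in the treated channel and 813 to 962 in the untreated channel, against 62 to 67 and 66 to 80 on negative control spots. The array of replicate 2 stood apart: over all probes tested its ratios correlated with those of replicates 1, 3 and 4 at r = 0.050, -0.11 and -0.14 (across probes, which are not replicates), whereas the other 3 arrays correlated with each other at 0.57 to 0.78. Member values without that array are therefore given below. Hepatocyte markers were bright in both groups, and all 5 that were measured (Alb, Ttr, Apoa1, Ahsg and Tat itself) were well above background in both channels on every array. Their summed log2 level was 19.32 to 19.63 in treated livers and 19.83 to 19.91 in untreated livers, with 4 of 5 mean ratios below 0, from -0.70 (Alb) to 0.11 (Ttr). The 4 lower markers were bright, at mean log2 intensities of 17.08 to 18.00, where the median of all probes also lay below 0, and Ttr was dimmer at 15.64. The part of this shift in the results was not tested. In whole liver, fewer cells of a type and less RNA per cell cannot be told apart.

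None of the 5 members passed between treated and untreated livers (limma, Benjamini-Hochberg over 39328 probes): 0 of 5 had an adjusted p under 0.05, and over all probes 0 passed (0%). Without the array of replicate 2, 9689 of 39328 probes passed and again 0 of 5 members, and without loess 11892 of 39328 probes passed, among them Tat and Fah. At an unadjusted p under 0.05 (limma) there were again 0 of 5 members, where 10697 of all probes (27.2%) lay under that level. Ratios had the same sign on all 4 arrays for 0 of 5 members, against 31% of all probes. Treated and untreated livers were free of overlap for 0 of 5 members, against 7.08% of all probes, of which 2.49% had every treated liver below and 4.59% every treated liver above. The median of the members' mean log2 ratios was -0.0047, beside -0.0092 over all probes tested. On no array did all 5 genes share a sign. The ratios ran from -0.91 (Tat) to 0.34 (Hpd) on the array of replicate 1. On that of replicate 4 they ran from -0.041 (Gstz1) to 0.12 (Hgd). On each array 4 of 5 members did share a sign, above 0 for replicates 1 and 4 and below 0 for replicates 2 and 3. With 4 pairs, an exact two-sided sign-flip test of a single gene cannot go below p = 0.125.

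**Figure D1:**
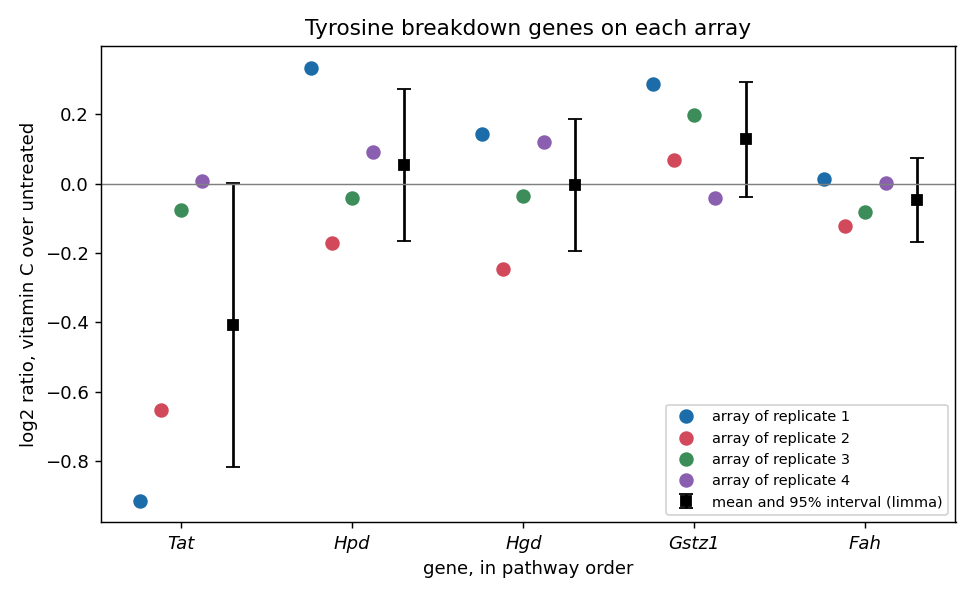
Log2 ratios of vitamin C over untreated (y axis) for the 5 tyrosine breakdown genes in pathway order (x axis), 1 coloured point per array, with the mean of 4 arrays and limma's 95% interval as a black square and bar. Tat lies at -0.91 and -0.65 on the arrays of replicates 1 and 2 and near 0 on the other 2, and the means of the 4 later enzymes lie between -0.047 and 0.13.

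Tat, the aminotransferase that opens the pathway, had the largest mean difference of the members. Its log2 level was 16.41, 16.79, 17.08 and 17.32 in the treated livers of replicates 1 to 4, against 17.32, 17.45, 17.16 and 17.32 in the untreated livers. The treated livers of replicates 1 and 2 lay below every untreated liver, that of replicate 3 lay just below the lowest of them, and that of replicate 4 lay within their range, so the groups overlapped. Per array, the fold of treated over untreated was 0.531, 0.636, 0.949 and 1.01. The mean log2 ratio was -0.41 ± 0.45 (SD, n = 4), a fold of 0.753 with a 95% interval of 0.567 to 1.00 (limma adjusted p = 0.184, unadjusted p = 0.0503). The exact sign-flip test gave p = 0.25, with 3 of 4 arrays lower.

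The spread of Tat lay in the treated livers. Their log2 levels had an SD of 0.39, against 0.12 in the untreated livers. The ratio of these SDs, 3.33, was larger than that of 92.8% of all probes, and over all probes the treated SD was above the untreated SD in 67.6%. Tat was also the brightest member, at a mean log2 intensity of 17.11, where most probes had ratios below 0: the 112 probes within 0.25 log2 units of it had a median of -0.19, and 13.4% of them had a lower mean than Tat. Against the median of those probes on each array, Tat stood at -0.70 and -0.52 on the arrays of replicates 1 and 2, and at 0.13 and 0.19 on those of replicates 3 and 4. Without loess the mean was -0.66 and passed the threshold (limma adjusted p = 0.0351), after subtracting a running median over intensity it was -0.23 (adjusted p = 0.434), and without the array of replicate 1 it was -0.24 (adjusted p = 0.431). Without the array of replicate 2 it was -0.33 (adjusted p = 0.253).

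**Figure D2:**
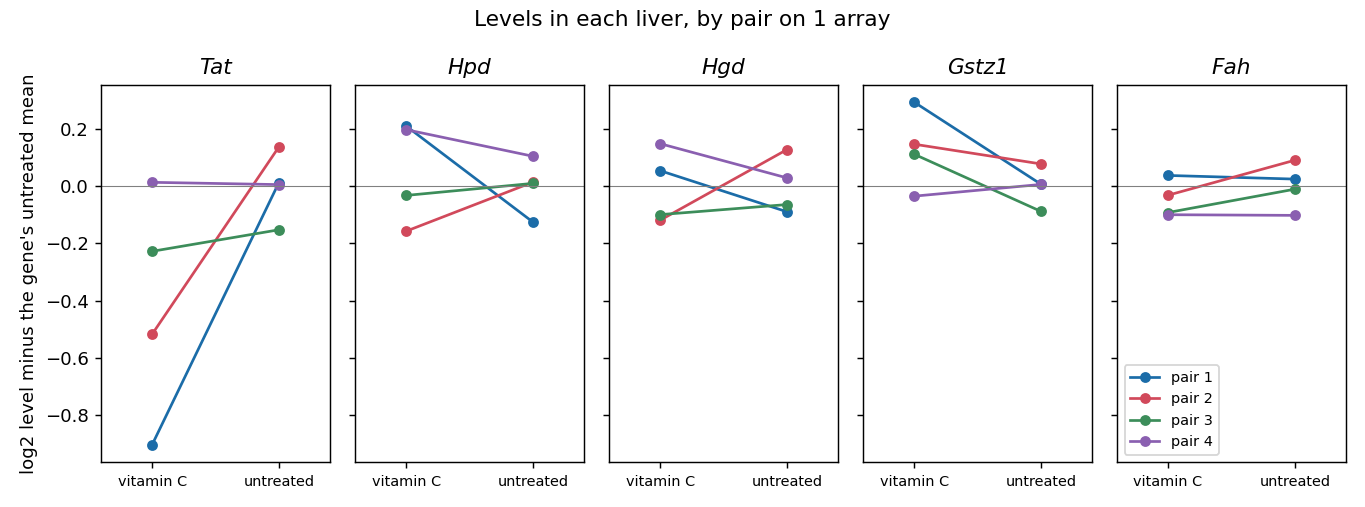
Log2 level of each gene in each liver, less that gene's mean over the 4 untreated livers (y axis), in treated livers (left) and untreated livers (right) of each panel, with a line joining the pair on 1 array. The treated livers of Tat span 0.92 log2 units and its untreated livers 0.29, while the treated livers of Fah span 0.14 and its untreated livers 0.19.

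Hpd, the ascorbate-sensitive dioxygenase, showed no shared direction. Its log2 level was 16.72, 16.35, 16.48 and 16.70 in the treated livers of replicates 1 to 4, against 16.38, 16.52, 16.52 and 16.61 in the untreated livers. The groups overlapped, with replicate 1 the only array far above 0 (a log2 ratio of 0.34) and replicate 2 the lowest (-0.17). The mean log2 ratio was 0.054 ± 0.22 (SD, n = 4; limma adjusted p = 0.711), and the 95% interval of the fold ran from 0.892 to 1.21. The interval holds for this processing and for the spread between arrays, and does not cover a dye effect of the probe. Without the array of replicate 1 the mean was -0.040, and without the array of replicate 2 it was 0.13. Without loess it was -0.17, just below the interval's lower bound of -0.165 in log2 units. None of these values passed.

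Hgd, which opens the ring of homogentisate, had a mean near 0. Its log2 level was 15.09, 14.92, 14.94 and 15.19 in the treated livers of replicates 1 to 4, against 14.95, 15.17, 14.98 and 15.07 in the untreated livers. The mean log2 ratio was -0.0047 ± 0.18 (SD, n = 4; limma adjusted p = 0.973), with array ratios of 0.14, -0.25, -0.035 and 0.12, and the 95% interval of the fold was 0.873 to 1.14. The sign of so small a mean changed with the processing, for example to 0.087 with Agilent's processed signals and to 0.076 without the array of replicate 2. Hpd and Hgd had the same sign as each other on all 4 arrays, above 0 on those of replicates 1 and 4 and below 0 on those of replicates 2 and 3. This was not particular to them, since Fah had the same signs (0.013, -0.12, -0.081 and 0.0024). The difference of Hgd minus Hpd was -0.058 ± 0.099 (SD, n = 4), the smallest SD among the 10 pairs of members.

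Gstz1, the isomerase, had the highest mean of the members. Its log2 level was 16.20, 16.06, 16.02 and 15.88 in the treated livers of replicates 1 to 4, against 15.92, 15.99, 15.82 and 15.92 in the untreated livers. Treated livers were higher on 3 of 4 arrays, while the groups overlapped. The mean log2 ratio was 0.13 ± 0.14 (SD, n = 4), a fold of 1.09 with a 95% interval of 0.975 to 1.23 (limma adjusted p = 0.257). Without loess the mean was -0.073, without the array of replicate 1 it was 0.076, and without that of replicate 2 it was 0.15, none of which passed.

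Fah, the last enzyme, was the steadiest. Its log2 level was 15.85, 15.78, 15.72 and 15.71 in the treated livers of replicates 1 to 4, against 15.84, 15.90, 15.80 and 15.71 in the untreated livers. The arrays of replicates 1 and 4 gave ratios of 0.013 and 0.0024, and those of replicates 2 and 3 gave -0.12 and -0.081. The mean log2 ratio was -0.047 ± 0.065 (SD, n = 4; limma adjusted p = 0.548), and the 95% interval of the fold, 0.890 to 1.05, was the narrowest of the 5. Of the 200 probes of like intensity, 15% had a smaller SD. Without the array of replicate 2 the mean was -0.022 (adjusted p = 0.759). Without loess the mean was -0.24 with an adjusted p of 0.0498 (limma), the only other value of a member that passed under any alternative.

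**Figure D3:**
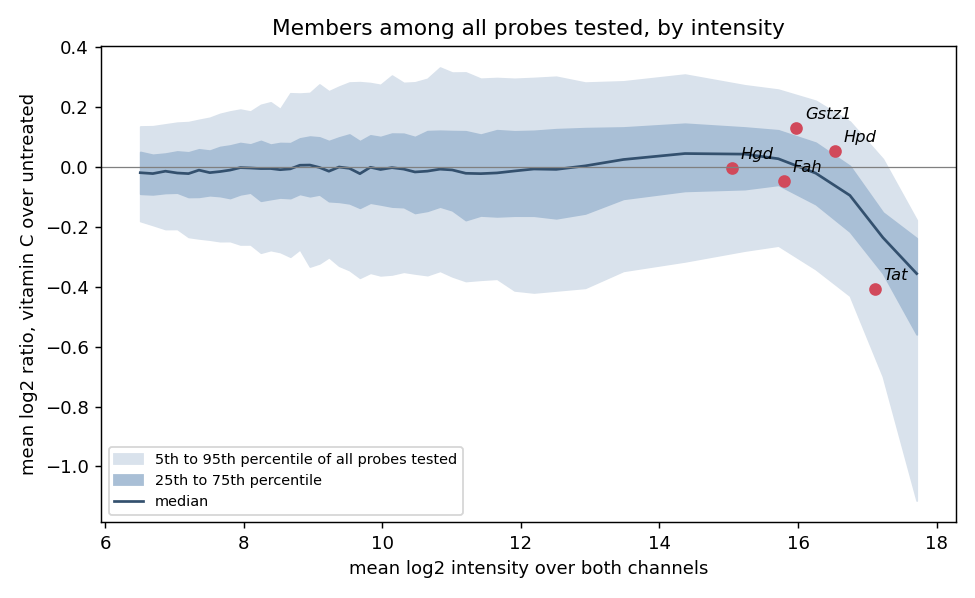
Mean log2 ratio over 4 arrays (y axis) against mean log2 intensity of both channels (x axis): the line is the median of all probes tested, the bands are the percentile ranges named in the legend, and red points are the 5 members. The median bends below 0 at the bright end, where Tat and Hpd lie, and Tat is below and Hpd above the median of probes as bright as they are.

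Differences between members were compared within arrays, over 10 pairs with exact two-sided sign-flip tests adjusted over the pairs. Hpd and Hgd each exceeded Tat on 4 of 4 arrays, by 0.46 ± 0.56 and 0.40 ± 0.46 log2 units (SD, n = 4; exact p = 0.125, the smallest that 4 pairs can give, adjusted p = 0.5). On the arrays of replicates 3 and 4 those differences were 0.11 or less. Against the median of probes of like intensity, Tat stood at 0.13 and 0.19 on the arrays of replicates 3 and 4. Hpd then stood at 0.0094 and 0.18 and Hgd at -0.088 and 0.0997, so both lay below Tat there. On the arrays of replicates 1 and 2 both still lay above Tat by that measure. The mean difference of Gstz1 from Tat was 0.54 ± 0.54, with 3 of 4 arrays higher, and that of Fah from Gstz1 was -0.18 ± 0.15, with 3 of 4 lower. No pair passed. The members' order by mean log2 ratio was Gstz1, Hpd, Hgd, Fah and Tat, and every neighbouring pair in that order differed by less than the SD of its difference.

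The genes whose 4 array ratios lay nearest to each member were found among genes within 1 log2 unit of its intensity, 350 to 980 candidates a member. For Tat they were Fbp1, which encodes an enzyme of gluconeogenesis, and Ebp, which encodes one of cholesterol synthesis, at root mean square differences of 0.23 and 0.27 over 4 arrays. Fbp1 had log2 ratios of -0.48, -0.48, -0.12 and -0.031 and Ebp -0.42, -0.47, -0.11 and -0.092 on the arrays of replicates 1 to 4. For Hpd they were Cisd1 and Hibadh (0.13 each), for Hgd Pcbp2 and Copz1 (0.058 and 0.063), for Gstz1 Ugp2 and Pttg1ip (0.028 and 0.043), and for Fah Prdx1 and Psmd11 (0.032 and 0.051). Among so many candidates, close matches over 4 arrays are a description only. Fbp1 was bright, at a mean log2 intensity of 17.90, and its mean of -0.28 was not low there. The 60 probes around 17.71 had a median of -0.36. Ebp, at 16.89, had a mean of -0.27, below the median of -0.095 of the 141 probes around 16.75. The part of intensity in these matches was not tested.

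Upstream of Tat, genes of the phenylalanine step and its cofactor tetrahydrobiopterin were all measured, 9 of 9. At an unadjusted p under 0.05, 1 was higher and 3 were lower, and 0 passed over all probes (limma), beside 11.7% of all probes higher and 15.5% lower. The list's median was -0.036. Gchfr, which encodes the feedback regulator of the first enzyme of biopterin synthesis, had log2 ratios of 0.31, 0.32, 0.52 and 0.38 on the arrays of replicates 1 to 4. All 4 were above 0, with a mean of 0.39 ± 0.096 (SD, n = 4; limma adjusted p = 0.139). Spr, of the last step of that synthesis, averaged -0.40 ± 0.32. The recycling enzymes Pcbd1 and Qdpr averaged -0.12 ± 0.075 and -0.036 ± 0.21. Without the array of replicate 2, Gchfr and Spr passed (limma adjusted p = 0.0141 and 0.0276), as did 9689 of 39328 probes. Without loess, Spr and Pcbd1 passed (0.0226 and 0.0261) and Gchfr did not (0.0854), where 11892 of 39328 probes passed. Pcbd1 was bright, at a mean log2 intensity of 17.03, where the median of all probes lay below 0. Its mean was 0.031 with Agilent's processed signals and 0.011 after subtracting a running median over intensity. With channels fitted separately, blocked by array, Gchfr passed (0.0242), as did 1299 of 39315 probes.

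Other enzymes that act on tyrosine or on its products were all measured, 14 of 14. At an unadjusted p under 0.05 (limma), 4 were higher and 2 were lower, where 11.7% of all probes were higher and 15.5% lower, and 0 passed over all probes. The list's median was 0.086, or 0.145 without the 1 gene whose probe was not well above background in both channels, Aldh3a1, which is named here after its values were seen. Mif, whose product can tautomerise phenylpyruvates, averaged 0.31 ± 0.21 (SD, n = 4) and Il4i1, a secreted oxidase of aromatic amino acids, 0.18 ± 0.11, each above 0 on 4 of 4 arrays. Both passed without the array of replicate 2 (limma adjusted p = 0.0253 and 0.0492), where 9689 of 39328 probes passed. Got1, the cytosolic aspartate aminotransferase, had 0.34, -0.45, 0.40 and 1.29, a mean of 0.40 ± 0.71, which was 0.097 without the array of replicate 4 and 0.68 without that of replicate 2.

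Transporters of aromatic amino acids had a median of 0.022 over 7 measured genes of 8, with 1 higher and 0 lower at an unadjusted p under 0.05 (limma; 11.7% and 15.5% of all probes). That gene was Slc16a10, the aromatic amino acid transporter TAT1, whose brightest probe averaged 0.34 ± 0.22 (SD, n = 4), above 0 on 4 of 4 arrays. Its other probes averaged 0.27 and -0.20, so they disagreed in direction. The brightest passed without the array of replicate 2 (limma adjusted p = 0.0260), where 9689 of 39328 probes passed. It also passed with channels fitted separately, blocked by array (limma adjusted p = 0.0489), where 1299 of 39315 did. Slc7a8 and Slc43a2, of the same list, averaged 0.19 ± 0.20 and -0.052 ± 0.082. Genes that handle fumarate and acetoacetate, the end products, had a median of 0.10 over 7 genes, which was -0.056 without loess and -0.057 without the array of replicate 4. In that list 1 gene was higher at an unadjusted p under 0.05 and 0 were lower. That gene was Acat1, the mitochondrial acetoacetyl-CoA thiolase, which averaged 0.25 ± 0.16 (SD, n = 4; adjusted p = 0.142) and was above 0 on 4 of 4 arrays.

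**Figure D4:**
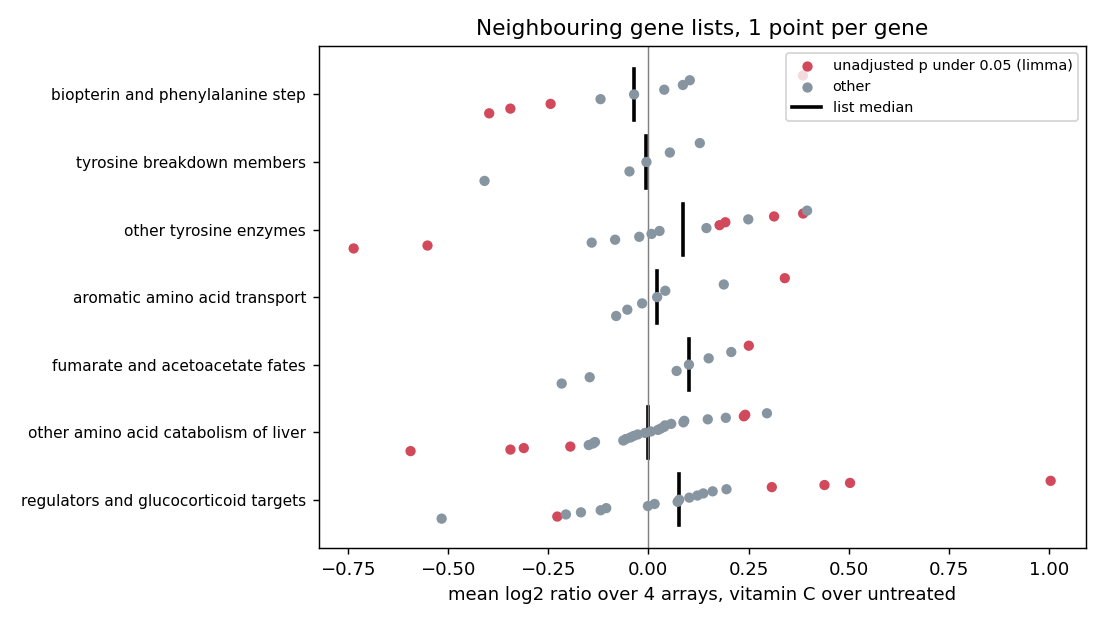
Mean log2 ratio over 4 arrays (x axis) of each measured gene in 7 lists around tyrosine breakdown (rows), red where the unadjusted p was under 0.05 (limma), with the list median as a black bar. The medians lie between -0.036 and 0.10, and the 5 breakdown genes have no red point.

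**Figure D5:**
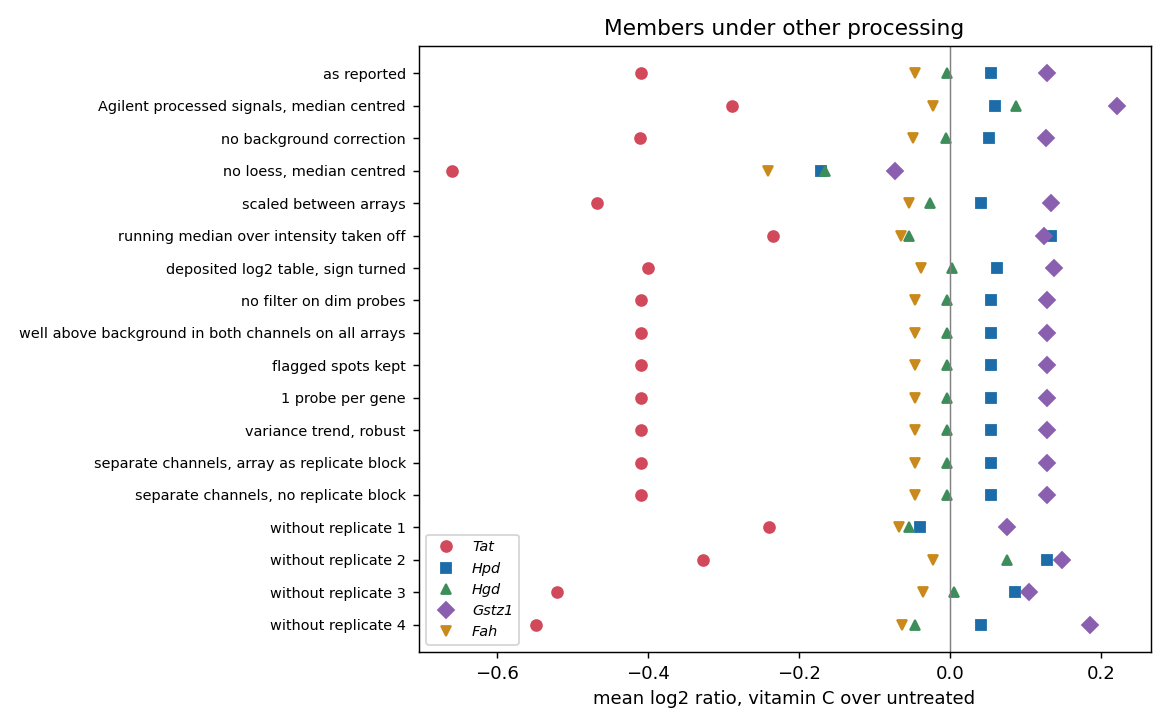
Mean log2 ratio (x axis) of the 5 members under the reported processing and 17 alternatives (rows), with a marker shape and colour per gene. Tat and Fah stay below 0 in every row, Tat from -0.66 to -0.23 and Fah from -0.24 to -0.022. Hpd, Hgd and Gstz1 lie on either side of 0 depending on the row.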

How the data were processed

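Per the file headers, the deposited scanner files come from Feature Extraction 10.5.1.1 and hold each spot's intensity in both channels. Per the file headers they also give Agilent's own log10 ratio, red over green. A deposited log2 table of the same arrays names limma in the submitters' processing notes, without a version. Its steps are not given. Its columns followed the log2 ratio of Cy5 to Cy3 with r = 0.950 to 0.980. By the dye labels, the deposited ratios therefore run as untreated over treated. Each sample's title is written the other way round, with vitamin C before the slash and the untreated mutant after it. If the titles gave the order of the deposited ratios, the sign of every ratio reported here would turn. Which reading holds was not tested. The column medians of the deposited ratios were 0.0037, 0.0050, 0.0022 and 0.0014.

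Here the median signals were corrected with normexp (offset 50) and loess, with control spots at weight 0. Spots marked as outliers were left out and repeat spots averaged. A probe was tested where 1 or both channels were well above background on 3 or more arrays, and the ratios were fitted with limma 3.58.1 in R 4.3.3, and p-values were adjusted over 39328 probes with a threshold of 0.05. Levels of single livers are log2 intensities after quantile scaling of the arrays' mean intensities. Accessions matched 1 symbol for 25097 probes (61.0%). Lists used each gene's brightest probe, and up to 3 genes a list were named by smallest p, beside 9 fixed names and the nearest 2 genes to each member. A few genes that this rule names are not reported here. The path was also run on simulated data. There the probe noise was set below the observed SD, with no array standing apart and no dye effect of single probes. That run cannot show how the path does on arrays like these. Members and lists were chosen with earlier results of these data known. P-values measure the spread between the 4 pairs only. In limma's p-values and intervals, a probe's own spread is moderated towards that of all probes tested. The number of pairs limits the precision.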

Additional observations from a re-analysis of the deposited data

How the results depend on the processing

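Over 17 alternatives, 76 of 85 values of the members kept their direction and their side of the threshold; 7 turned sign and 2 passed the threshold. Tat stayed below 0 in all 17 (-0.66 to -0.23, limma adjusted p = 0.0351 to 0.471), and an unadjusted p under 0.05 was reached in 8. Fah also stayed below 0 in all 17 (-0.24 to -0.022, limma adjusted p = 0.0498 to 0.887), and reached that level in 1. Over the 17 alternatives, 4025 to 18188 of all probes lay under that level, of 31073 to 41174 tested. Without loess, 11892 probes passed the threshold and 18188 had an unadjusted p under 0.05, of the members 2 (Tat and Fah). The members' median was then -0.17, and the list medians were -0.23 (biopterin), -0.093 (transport), -0.19 (other amino acid catabolism) and -0.051 (regulators); Hpd was at -0.17, Gstz1 at -0.073, Hal at -0.16, Hnf4a at -0.038 and Nr3c1 at -0.10. With Agilent's processed signals Hgd was at 0.087, Pcbd1 at 0.031 and Nr3c1 at -0.024. After subtracting a running median over intensity, Pcbd1 was at 0.011, Gnmt at 0.16 and Nr3c1 at -0.0058. In the deposited table, with its sign turned, Hgd was at 0.0030. The cause of these changes was not tested.

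Since each ratio is taken within an array, it already holds the pairing. With channels fitted separately and the array as replicate block (consensus correlation 0.522), 1299 probes passed. At an unadjusted p under 0.05 (limma) there were 11195 of 39315 probes and 1 member, Tat (0.0170, adjusted p = 0.104). With no replicate block 0 probes passed, 5624 had an unadjusted p under 0.05, and again 1 member, Tat (0.0406). The same count of 1 member, Tat, was found with scaling between arrays, with no filter on dim probes and with a variance trend. Of all probes, 9893 of 39328, 11125 of 41174 and 10654 of 39328 lay under that level in those settings. With an array left out, the probes past the threshold ran from 0 to 9689, reached without replicate 2. Those at an unadjusted p under 0.05 ran from 4025 (without replicate 3) to 16354 (without replicate 2), with 5305 without replicate 1 and 5357 without replicate 4. Of the members, 0 to 2 lay under that level: Tat without replicate 3, and Tat and Gstz1 without replicate 4. The biopterin list's median ran from -0.13 (without replicate 1) to 0.016. Hpd ran from -0.040 to 0.13, Hgd from -0.054 to 0.076, Qdpr from -0.14 to 0.016, Hal from -0.11 to 0.13 and Nr3c1 from -0.018 to 0.047. All 5 members were well above background in both channels on all 4 arrays and none was saturated.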

Other observations

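Among other enzymes of amino acid catabolism in liver, 26 of 28 genes were measured, with 2 higher and 4 lower at an unadjusted p under 0.05 (11.7% and 15.5% of all probes) and 0 past the threshold over all probes (limma). The list's median was -0.0011, and 13 genes had a mean on each side of 0. Aass, which starts lysine breakdown, had log2 ratios of -0.40, -0.46, -0.43 and -0.087 on the arrays of replicates 1 to 4, a mean of -0.34 ± 0.17 (SD, n = 4). Gnmt, a glycine methyltransferase, averaged -0.31 ± 0.19, and 0.16 after subtracting a running median over intensity. Gcat, of threonine breakdown, averaged 0.24 ± 0.15 and was above 0 on 4 of 4 arrays. Without loess Aass and Gnmt passed (limma adjusted p = 0.0192 and 0.0199), as did 11892 of 39328 probes. With channels fitted separately, blocked by array, they also passed (0.0343 and 0.0489), as did 1299 of 39315 probes. Gcat passed without the array of replicate 2 (0.0367), where 9689 of 39328 probes passed. Tdo2, the tryptophan dioxygenase that glucocorticoids induce in rodent liver along with Tat, had 0.19, 0.054, -0.42 and -0.35, so its low arrays were those of replicates 3 and 4 and not, as for Tat, those of replicates 1 and 2; its other probe had 0.12, 0.061, -0.67 and -0.54. Hal, of histidine breakdown, had -0.23, 0.088, -0.18 and 0.48.

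Of the regulators of Tat and the targets of glucocorticoids, 19 of 21 genes were measured, with 4 higher and 1 lower at an unadjusted p under 0.05 (11.7% and 15.5% of all probes) and 0 past the threshold (limma). The glucocorticoid receptor gene Nr3c1 averaged 0.016 ± 0.10 (SD, n = 4), and its 3 dimmer probes -0.085, 0.12 and -0.17. Hnf4a, a nuclear receptor of hepatocytes, averaged 0.077 ± 0.19 on its brightest probe and -0.25 and -0.19 on the other 2, so its probes disagreed. Nr1i2, the receptor PXR, averaged 0.50 ± 0.24 and Crem, a cyclic AMP responsive factor, 0.31 ± 0.24, each above 0 on 4 of 4 arrays. The 5 other probes of Crem averaged 0.082 to 0.45. Fkbp5, which glucocorticoids induce, averaged -0.23 ± 0.13 on its brightest probe, below 0 on 4 of 4 arrays, and 0.080 and 0.016 on the others. Among other genes of the list that glucocorticoids are known to induce, named here after their values were seen, Igfbp1 averaged 1.00 ± 1.08 (-0.61 on the array of replicate 2), Per1 0.44 ± 0.38, Sgk1 0.14 ± 0.28 and Tsc22d3 0.12 ± 0.16. G6pc and Cebpb, of the same list and also named after their values were seen, averaged 0.20 ± 0.60 and -0.11 ± 0.14, each with arrays on both sides of 0. Without the array of replicate 2, Nr1i2, Crem and Fkbp5 passed (limma adjusted p = 0.0136, 0.0424 and 0.0180), as did 9689 of 39328 probes. Without loess Nr1i2 and Fkbp5 passed (0.0336 and 0.0284), as did 11892 of 39328 probes. With channels fitted separately, blocked by array, Nr1i2 passed (0.0290), as did 1299 of 39315 probes.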
